A study of Mus musculus with 7 samples.

Results

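Chromatin immunoprecipitation followed by sequencing (ChIP-seq) placed retinoic acid receptor α (RARα) and retinoic acid receptor β (RARβ) at 1512 regions of the mouse liver genome where no peak of retinoid X receptor α (RXRα) was called under either diet. Livers came from male C57BL/6 mice aged 3 months, without any engineered allele, fed either a normal diet (control) or food containing retinoic acid (RA), for 1 day according to the labels. The study's methods describe a longer RA treatment, so the duration is not settled. There were 6 ChIP libraries, 1 for each receptor and diet, and 1 input library that was not analysed here. The labels do not say how many livers went into a library.

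Peaks of the 6 deposited lists that overlapped or touched were merged into 87787 regions on mm10. The regions described here were chosen by the peak calls themselves: at least 1 of the RARα lists, at least 1 of the RARβ lists and neither RXRα list. They were 1.72% of all regions. Of the 24164 regions called for both RARα and RARβ, 6.26% (95% Wilson interval 5.96 to 6.57) lacked an RXRα peak, and the other 22652 had one. Of all 55914 regions with a RAR peak, 31.6% lacked RXRα, most of them (14404) called for RARα alone. These shares follow from the selection and were not tested. Each group was 1 library, so no test over replicates was possible, and intervals on shares cover counting error only, not the spread between animals. The lists ranged from 14968 peaks (RARβ, control) to 61128 peaks (RXRα, control). The study reports uniquely mapped reads for RXRα and RARα alone, fewer for RXRα, without naming the diet. The read depth of each list was therefore unknown. "Without RXRα" therefore means only that no RXRα peak was called.

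RARs are ligand-activated transcription factors. In the classical scheme an RAR pairs with an RXR, and the pair binds DNA at direct repeats of a receptor half-site, where RA turns it from a repressor into an activator. RXRα is the main RXR of hepatocytes and also serves as partner of PPARα, LXR, FXR and PXR, which control fatty acid, sterol, bile acid and drug metabolism.

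The sequences upstream of 6 genes are given here because the gene starts lay within such regions and because they carry the letter strings that the promoter comparison counts. Each is the 250 bases before the start of transcription, on the strand of the gene, from RefSeq on GRCm38.p6. Capitals mark CCAAT (or ATTGG, its reverse complement), the receptor half-site AGGTCA (or TGACCT), and the YY1 core ATGGCG (or CGCCAT), which overlaps a CCAAT box in Jpt1, so that their letters run together. They lie at chr12:69184068-69184317 (minus strand), chr11:115514394-115514643 (minus), chr11:95041372-95041621 (minus), chr15:80711063-80711312 (plus), chr5:45519979-45520228 (plus) and chrX:72918271-72918520 (plus), in this order.
Rpl36al: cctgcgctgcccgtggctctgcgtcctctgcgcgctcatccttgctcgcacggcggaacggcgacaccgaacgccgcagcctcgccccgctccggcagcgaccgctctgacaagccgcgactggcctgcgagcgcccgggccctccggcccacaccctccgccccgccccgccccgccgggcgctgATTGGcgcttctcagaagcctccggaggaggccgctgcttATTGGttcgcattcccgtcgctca
Jpt1: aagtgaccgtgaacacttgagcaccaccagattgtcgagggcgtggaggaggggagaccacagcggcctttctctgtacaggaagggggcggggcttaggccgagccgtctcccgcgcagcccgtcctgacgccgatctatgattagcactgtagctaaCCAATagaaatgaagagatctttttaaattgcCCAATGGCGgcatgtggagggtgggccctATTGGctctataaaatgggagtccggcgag
Pdk2: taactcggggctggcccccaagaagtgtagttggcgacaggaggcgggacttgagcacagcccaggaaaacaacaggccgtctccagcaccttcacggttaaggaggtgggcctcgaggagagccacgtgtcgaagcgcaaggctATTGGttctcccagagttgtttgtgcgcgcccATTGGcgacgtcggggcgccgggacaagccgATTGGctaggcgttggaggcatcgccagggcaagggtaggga
Tnrc6b: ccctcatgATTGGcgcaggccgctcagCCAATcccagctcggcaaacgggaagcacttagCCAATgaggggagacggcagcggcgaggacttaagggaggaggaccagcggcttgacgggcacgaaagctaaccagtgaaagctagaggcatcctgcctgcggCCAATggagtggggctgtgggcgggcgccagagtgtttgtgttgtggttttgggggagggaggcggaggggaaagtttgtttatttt
Med28: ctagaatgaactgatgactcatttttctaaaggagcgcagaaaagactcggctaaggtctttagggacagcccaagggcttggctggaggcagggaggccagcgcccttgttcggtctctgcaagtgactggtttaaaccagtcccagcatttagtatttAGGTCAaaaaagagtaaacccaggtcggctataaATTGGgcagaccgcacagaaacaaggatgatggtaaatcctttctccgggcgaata
Nsdhl: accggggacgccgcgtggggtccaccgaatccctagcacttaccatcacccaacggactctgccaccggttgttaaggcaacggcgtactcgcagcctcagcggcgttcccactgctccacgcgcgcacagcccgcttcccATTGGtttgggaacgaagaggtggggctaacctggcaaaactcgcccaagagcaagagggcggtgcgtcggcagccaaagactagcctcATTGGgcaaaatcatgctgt
Jpt1 has 3 CCAAT boxes, beginning 91, 59 and 30 bases before the start, and Pdk2 has 3, beginning 105, 73 and 42 bases before it. Of the 6 sequences, Med28 alone has an exact receptor half-site, 90 bases before the start.

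The receptors were not called equally often within these regions. The rule selects on the calls, so the call patterns here and below are fixed in part by it. Their differences from regions with RXRα are descriptions and were not tested. RARα was called in 1312 of the 1512 under the control diet and in 1371 under RA. RARβ was called in 806 under the control diet and in 1092 under RA. The commonest pattern was RARα under both diets with RARβ under RA alone, in 544 regions. All 4 RAR lists called 319 regions (21.1%, interval 19.1 to 23.2), against 41.1% of the RARα and RARβ regions with RXRα. The difference was -20.02 percentage points (95% Newcombe interval -22.1 to -17.8). RARα was held under both diets in 77.4% of the regions without RXRα and 73.3% of those with it, a difference of 4.20 points (1.95 to 6.31).

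**Figure D1:**
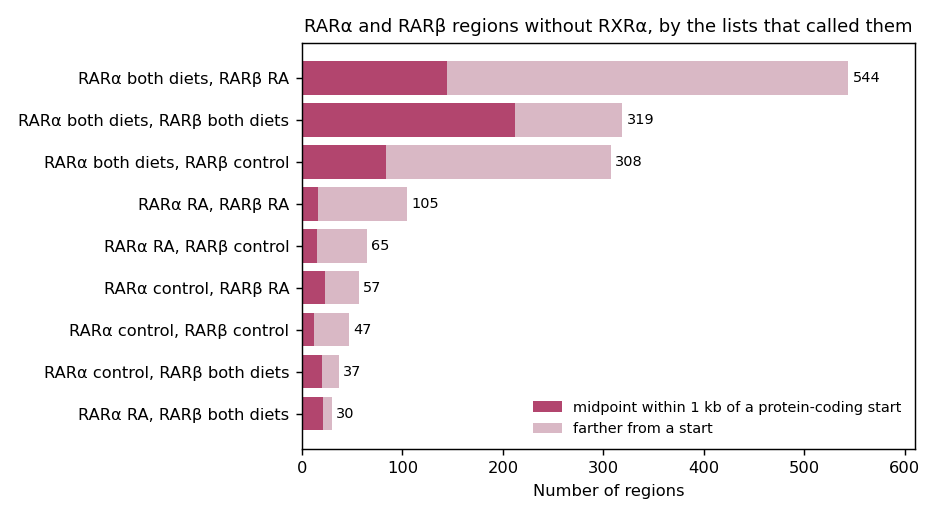
Number of regions called for RARα and RARβ but not RXRα, by the diets under which each receptor was called, with the regions near a protein-coding gene start in the darker shade. The 319 regions called in all 4 RAR lists are the pattern with most regions near a start, 212.

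RARβ called under the control diet but not under RA was more frequent in these regions than in those with RXRα. It occurred in 420 of them (27.8%) and in 5.15% of the regions with RXRα, a difference of 22.6 points (20.4 to 24.96). Read the other way, 26.5% (24.4 to 28.7) of the RARα and RARβ regions with RARβ under the control diet alone lacked RXRα. The share was 6.05% (5.63 to 6.49) where RARβ was called under RA alone and 3.54% (3.21 to 3.90) where it was called under both diets. RARβ under RA alone was about as frequent without RXRα (46.7%) as with it (48.4%), with a difference of -1.74 points (-4.33 to 0.863). The RA lists are longer than the control lists for both RARs, and with 1 library a diet the effect of RA and of library depth cannot be told apart.

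Regions that only the RA lists called for both RARs numbered 105 (6.94%), against 15.6% of the regions with RXRα, a difference of -8.61 points (-9.88 to -7.14). Regions that only the control lists called numbered 47 (3.11%), against 0.781%. In 122 regions (8.07%) RARα was called under one diet and RARβ under the other, so the RARs were never called together. With RXRα the share of such regions was 5.11%.

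At these regions the median RARα score was about as high as at regions with RXRα, and the median RARβ score was lower. The score of the peak caller MACS rises as the p-value of a peak falls. No deposited peak had a score under 50, and scores are not comparable between lists. Under the control diet the RARα peaks of these regions had a median score of 143, equal after rounding to that of the RARα peaks at regions with RXRα (143). Under RA the RARα medians were 163 without and 148 with RXRα. The third quartiles of RARα were lower without RXRα, at 231 against 281 under control and 260 against 272 under RA. The RARβ medians were lower without RXRα, at 68.3 against 83.2 under the control diet and 66.4 against 114 under RA. In the RARβ RA list, 19.5% of the peaks without RXRα and 59.0% of those with it reached a score of 100.

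**Figure D2:**
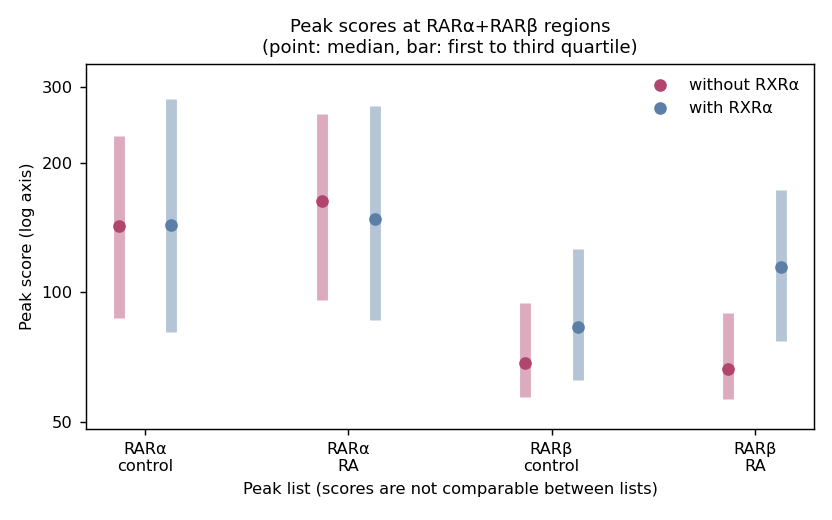
Peak scores, on a log axis, of each RAR list at RARα and RARβ regions without and with RXRα, as median (point) and interquartile range (bar). The groups are alike in the RARα lists, and in the RARβ RA list the median is 66.4 without and 114 with RXRα.

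The share of RARα and RARβ regions without RXRα was lower at higher RARβ scores. In 4 equal parts of the RARβ RA list, from the lowest to the highest scores, it was 13.9%, 5.83%, 1.99% and 1.29%. In such parts of the RARβ control list it was 10.3%, 8.11%, 5.35% and 3.63%. No such order was seen along the RARα control score, where the shares were 5.94%, 6.53%, 9.62% and 5.50%. At the regions where RXRα was called under one diet alone, RXRα itself scored low, with a median of 75.9 for the 771 called under the control diet and 84.0 for the 1170 called under RA. Where both RXRα lists had a peak, the medians were 279 and 294.

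**Figure D3:**
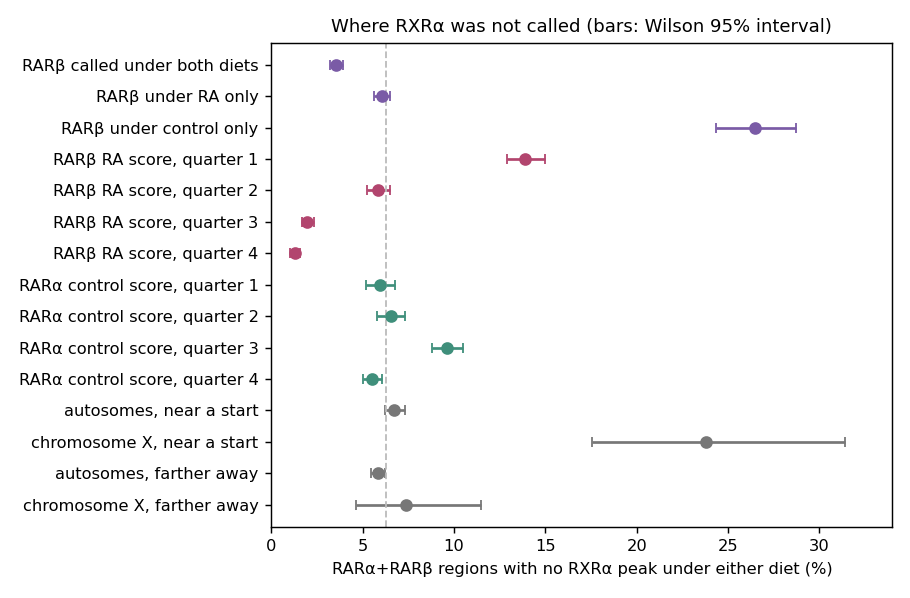
Percentage of RARα and RARβ regions with no RXRα peak, with Wilson 95% intervals, by the diets of the RARβ calls, by quartile of the RARβ RA and RARα control scores, and by chromosome and distance to a start. The dashed line is the share over all RARα and RARβ regions, 6.26%, and the highest shares are RARβ under the control diet alone (26.5%) and chromosome X near a start (23.8%).

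These regions lay near gene starts more often than most other classes of RAR or RXRα region. The midpoint was within 1 kb of the start of a protein-coding gene in 547 of the 1512 (36.2%, interval 33.8 to 38.6) and within 10 kb in 54.1%. For regions with all 3 receptors these shares were 31.8% and 48.1%, with differences of 4.39 points (1.93 to 6.91) and 6.00 points (3.40 to 8.58). Regions called for RARα alone were within 1 kb in 6.66%, for RARβ alone in 8.96%, and for RXRα alone in 2.49%. Beyond 1 kb, 523 of the regions without RXRα (34.6%) lay inside a gene. No finer annotation (exon or intron) was used here. Of the regions called in all 4 RAR lists, 66.5% were within 1 kb of a start, at a median of 0.154 kb from it. At equal numbers of RAR lists the regions without RXRα were nearer to starts than those with it, with 24.1% against 4.14% for 2 lists, 29.3% against 20.7% for 3 and 66.5% against 56.3% for 4. The differences were 19.95 points (15.2 to 25.4), 8.53 points (5.55 to 11.7) and 10.2 points (4.74 to 15.2). Nearness to starts was not particular to regions without RXRα. Over all list numbers, regions with RXRα called under 1 diet alone were within 1 kb more often, in 42.2% (control) and 56.2% (RA). Where both RXRα lists had a peak the share was 30.0%.

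**Figure D4:**
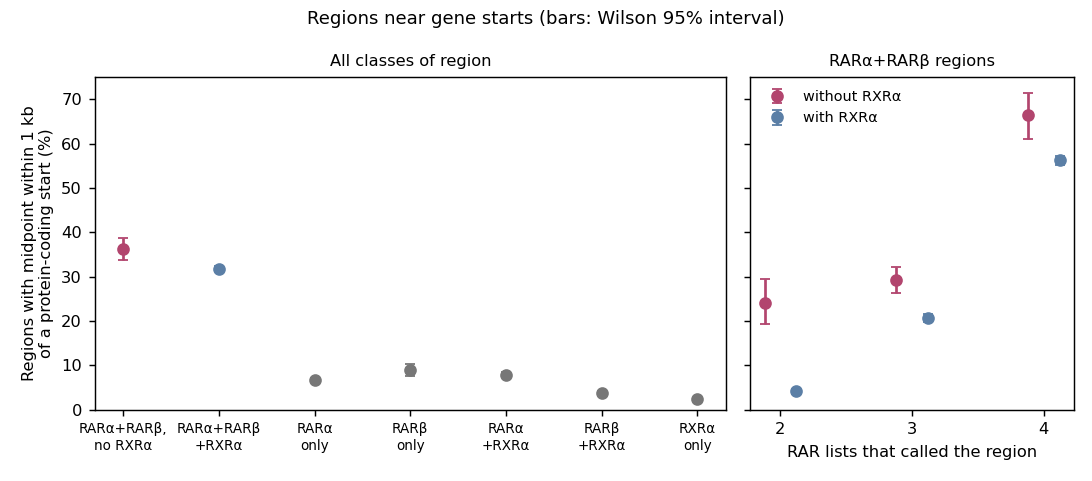
Percentage of regions with the midpoint within 1 kb of a protein-coding start, with Wilson 95% intervals, for all classes of region (left) and by the number of RAR lists that called a RARα and RARβ region (right). The regions without RXRα stand at 36.2% over all and above those with RXRα at 2, 3 and 4 lists.

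RXRα was often called close by. The median distance from the edge of a region to the nearest RXRα peak was 5.02 kb, from 5 bp to 492.01 kb. An RXRα peak lay within 1 kb of 289 regions (19.1%, interval 17.2 to 21.2) and within 10 kb of 961 (63.6%). Regions called for RARα alone had an RXRα peak within 1 kb in 11.3% and regions for RARβ alone in 15.6%. Among the 547 regions at gene starts the share was 27.6% (24.0 to 31.5), or 151 regions. In 102 of these 151 (67.5%, 59.7 to 74.5) the RXRα peak was on the downstream side, toward the gene body. Among the 385 regions at starts with RXRα within 10 kb, the downstream share was 55.6% (50.6 to 60.5). For the 237 regions of RARα alone at starts with RXRα within 1 kb, it was downstream in 51.1% (44.7 to 57.4).

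Measured by distance to RXRα, few regions lay close to the edge of the selection. By score, many RARβ peaks lay near the lowest deposited score of 50, with first quartiles of 57.2 (control) and 56.4 (RA). An RXRα peak was within 0.1 kb of 31 of the 1512 regions, and of the regions with all 3 receptors 4 had an overlap of 1 to 50 bp between RXRα and RAR peaks, with a median overlap of 674 bp. Just inside were the region at Sft2d1, a gene of vesicle transport, and a region inside Dnajc25, each 5 bp from an RXRα peak, and a region inside Ergic1, 6 bp from one. The Sft2d1 region (chr17:8310625-8311512) had RARα scores of 181 under control and 169 under RA and a RARβ score of 165 under control. Just outside were the region at Ccnyl1, where an RXRα peak overlapped the RAR peaks by 17 bp, at Lrp6, a Wnt co-receptor (19 bp), and at Pls3, an actin-bundling protein (24 bp). The 3 regions outside were each called in all 4 RAR lists, lay within 1 kb of a start and were 1166 to 1994 bp wide. That width includes the RXRα peak by construction, unlike the width of the 3 inside, so the widths are not comparable. The 3 inside were each called in 3 RAR lists and were 796 to 888 bp wide. By the outermost gene starts used here, Sft2d1 alone of them lay within 1 kb. The Dnajc25 region was 8.38 kb from that start but covered another RefSeq start of Dnajc25 (window chr4:59002943-59003242).

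The widest region without RXRα, 5764 bp, was at Apoa1 (chr9:46227632-46233395). Apoa1 encodes the main protein of high-density lipoprotein and is among the most active genes of the hepatocyte. RARα scored 536 under control and 405 under RA there, and RARβ 68.2 and 59.2. An RXRα peak lay 107 bp away. The region covered the start of Apoa1 but had its midpoint 1.88 kb from it, so it was not counted among the regions at starts.

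The 8 regions at starts with the highest mean score rank in all 4 RAR lists lay at genes of varied roles. The first was the shared promoter of Rpl36al, a ribosomal protein gene, and Mgat2, an enzyme of N-glycan maturation in the Golgi (chr12:69183306-69184640). Its RARα scores were 755 under control and 597 under RA, and its RARβ scores 257 and 351. The nearest RXRα peak was 2.31 kb away. Those starts face away from each other, and the RefSeq sequences upstream of both hold the same pair of CCAAT boxes.
Jpt1, a microtubule-associated protein gene, had RARα scores of 693 and 550.3 and RARβ scores of 221 and 469 in control and RA, with RXRα 3.80 kb away. Tnrc6b, which takes part in gene silencing by microRNAs, had the highest RARβ scores of the 8, at 405 and 820.5, with RARα at 355 and 332. An RXRα peak was 124 bp from it. Pdk2, a kinase that restrains pyruvate dehydrogenase, had RARα scores of 513 and 388 and RARβ scores of 128 and 267, with RXRα 154 bp away. The others were Kif1b (a kinesin motor), Zcchc14, Akap13 (an anchor of protein kinase A) and Hsd17b12 (an enzyme of fatty acid elongation). Of the 8, Kif1b, Zcchc14, Akap13, Tnrc6b and Pdk2 had an RXRα peak within 1 kb, and Rpl36al, Jpt1 and Hsd17b12 did not.

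Far from any start, the region 12.98 kb upstream of Prrc2b (chr2:32137646-32138468) ranked highest. Its RARα scores were 404 and 375 and its RARβ scores 380.4 and 500.5 in control and RA. A region of 474 bp inside Il1rapl1 (chrX:87238132-87238605), a gene known for its role at synapses, was the farthest of all from an RXRα peak, at 492.01 kb. Its scores were 258 and 283 for RARα and 207 and 221 for RARβ. Next came a region 19.38 kb upstream of Lrrc10 (chr10:117025456-117026462), with RARα 370.5 and 531 and RARβ 255 and 76.9, and a region inside Cenpo, 13.46 kb upstream of Ptrhd1 (chr12:4219107-4221996), with RARα 383 and 329.9 and RARβ 438 and 78.4. In both, RARβ scored higher within its list under the control diet. A region 18.03 kb upstream of Parp16 had the highest RARα scores of any region without RXRα, 994 under control and 925 under RA, beside RARβ scores of 100.2 and 90.6. The opposite case was chosen after its values were seen. A region 5.85 kb upstream of Srbd1 had RARβ scores of 1275 and 2226 but a RARα score of 63.8 under RA and no RARα peak under the control diet.

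Among the regions called in the RA lists alone, the highest-ranking was at the start of Cmss1, with RARα 127 and RARβ 128. Next came a region 97.16 kb upstream of Zfp516 (125 and 97.2), with an RXRα peak 21 bp away. The others lay 70.8 kb upstream of Thy1 (153 and 81.2), inside Abi3bp (385 and 52.7) and inside Efcab12 (248.5 and 60.5). Among those called in the control lists alone, a region inside Stam2, an endosomal sorting gene, had RARα 215 and RARβ 291. Regions inside Fam91a1 (174 and 160.3), Dnajc3, a chaperone gene of the endoplasmic reticulum (141 and 130.5), and Tatdn1 (121 and 151) followed. The last of the 5, a region at the start of Selenbp2, had RARα 510 and RARβ 67.7, with an RXRα peak 40 bp away. The 5 control-only regions were 1774 to 2838 bp wide, and the 5 RA-only regions 379 to 945 bp.

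At the promoters, 596 RefSeq windows of 300 bases (250 before to 50 after a start) were at least 50% covered by a region without RXRα, and 8325 by a region with it. The windows cover 524 genes in the first group, and alternative starts of a gene can overlap. Windows of neighbouring genes on opposite strands can overlap too, as at Rpl36al and Mgat2, so that the same letters count more than once. The intervals treat windows as independent and may be too narrow. Strings were sought on both strands with no mismatch. Exact receptor half-sites (AGGTCA) were in 8.39% (6.42 to 10.9) of the windows without RXRα, in 12.6% of those with it and in 14.7% of all 21238 windows. The difference between the groups was -4.16 points (-6.26 to -1.57). Within regions called in all 4 RAR lists it was -0.622 points (-4.00 to 3.88), with 11.0% against 11.6%. Direct repeats of AGGTCA with 1, 2 or 5 bases between them (DR1, DR2, DR5), the classical elements of RXR pairs, were in 0 of the 596 windows, which allows a share of up to 0.503% by the limit of 3 counts (Wilson upper bound 0.640%). In all windows the shares were 0.0471%, 0% (0 of 21238, up to 0.0141% by the same limit) and 0.00471%. Degenerate repeats were not searched.

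The CCAAT box, which nuclear factor Y binds, was more frequent in the windows without RXRα than in those with it. The receptor half-site and the E-box differed in the other direction. No interval was widened for the number of strings compared. It was in 45.5% of them, in 40.5% of the windows with RXRα (difference 4.97 points, 0.870 to 9.11) and in 38.2% of all windows. Within regions called in all 4 RAR lists the shares were 53.7% and 42.0%, a difference of 11.8 points (5.52 to 17.9). Promoters with several boxes, of the kind shown for Rpl36al, Jpt1, Pdk2 and Tnrc6b, were counted after those sequences had been seen. At least 2 boxes were in 22.8% of windows without RXRα, 16.9% with it and 12.8% of all windows. For regions in all 4 RAR lists these were 32.2% without and 18.9% with RXRα, a difference of 13.2 points (7.72 to 19.3). At least 3 were in 15.3% and 7.17% of the same windows, a difference of 8.13 points (4.17 to 13.1). A match is a description of letters, not a bound site.

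**Figure D5:**
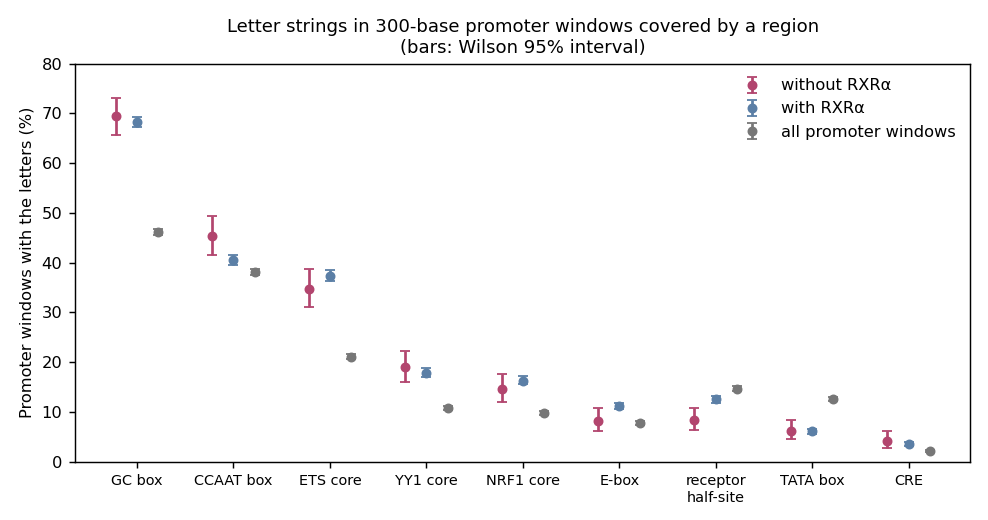
Percentage of 300-base promoter windows that hold each string, with Wilson 95% intervals, for windows covered by a region without RXRα, with RXRα, and for all windows. The CCAAT box is at 45.5% without and 40.5% with RXRα, and the receptor half-site at 8.39% and 12.6%.

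Apart from the E-box, the other strings were about as common without RXRα as with it, and both groups differed from promoters at large. The ETS core (CGGAAG) was in 34.7% and 37.4% of windows, against 21.1% of all. The GC box (GGGCGG) was in 69.5% and 68.3%, against 46.2%. The YY1 core (ATGGCG) was in 18.96% and 17.9%, against 10.9%, and the NRF1 core (TGCGCA) in 14.6% and 16.3%, against 9.73%. The E-box (CACGTG) was less frequent without RXRα, at 8.22% against 11.2% (difference -2.99 points, -5.05 to -0.418). Its share without RXRα was near that of all windows, 7.84%. The TATA box (TATAAA) was in 6.21% and 6.10%, against 12.6% of all, and the cyclic AMP response element (TGACGTCA) in 4.19% and 3.63%, against 2.24%. The windows of both groups had a median GC content of 62% and a median of 22 CpG dinucleotides, against 56.3% and 13 over all windows. Starts on opposite strands within 1 kb of the midpoint were found at 55 of the 547 regions at starts (10.1%) and at 13.2% of those with RXRα, a difference of -3.19 points (-5.58 to -0.286). Over all protein-coding starts the share was 10.8% (10.4 to 11.2), near that of the regions without RXRα.

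In all, 602 of 21537 protein-coding genes (2.8%) had a region without RXRα within 1 kb of the start. Of these genes, 418 (69.4%) still had an RXRα region within 10 kb, against 65.4% of all genes, and 184 (30.6%) had none. Gene groups are read here against the background of 2.8%. None of 20 RAR target genes, 20 PPARα targets, 20 LXR and FXR targets, 17 nuclear receptor genes and 14 coregulator genes had such a region at the start, with Wilson upper bounds of 16.1% to 21.5%. Of these 5 lists, Stra8, a germ cell gene that RA induces, and Rxrb, which encodes RXRβ, had such regions within 10 kb, against 4.94% of all protein-coding genes. The region near Rxrb was at the start of its neighbour Ring1. One region near Stra8 lay inside the gene at 7.16 kb from its start, and the other was at the start of the neighbouring gene Wdr91.
Of 20 hepatocyte genes, 0 had one within 1 kb and 3 within 10 kb (Apoa1, Apoc3 and Fgb). The region near Apoa1 and Apoc3 was the wide one described above, and that near Fgb, a fibrinogen chain gene, was at the start of its neighbour Plrg1, a splicing factor gene. Markers of other liver cells had none, in 17 genes. RXRα regions were within 1 kb of 13 of the 20 hepatocyte genes and of 2 of the 17 markers of other liver cells, against 44.9% of all protein-coding genes. Peaks do not measure transcripts, so the tissue could not be checked by expression.

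Regions with all 3 receptors lay within 1 kb of the start of 71 of 83 cytosolic ribosomal protein genes, against 37.9% of all protein-coding genes, and Rps16 alone had one without RXRα. The Rps16 region (chr7:28350267-28351158) had RARα scores of 235 and 443 and RARβ scores of 111 and 81.1, with RXRα 1.99 kb away. Of 78 mitochondrial ribosomal protein genes, 3 had a region without RXRα (Mrps35, Mrpl57 and Mrpl52), and of 49 complex I genes 1 had (Ndufb4c). Of 39 proteasome genes 3 had one (Psmd14, Psmd10 and Psmb8), of 56 translation initiation factor genes 3 (Eif1, Eif3i and Eif2s3x), and of 63 splicing genes 2 (Lsm2 and Lsm10). None of the 13 RNA polymerase II genes had one. The 95% intervals of these shares all include the background of 2.8%.
Of 30 Mediator genes, 3 (10%, interval 3.46 to 25.6) had a region without RXRα: Med28, Med25 and Med15, of the complex that links transcription factors to RNA polymerase II. Med28 had RARα scores of 199 and 234 and RARβ scores of 52.4 and 70.2, with RXRα 3.85 kb away. Of 393 zinc finger genes with the symbol Zfp, 19 (4.83%, 3.12 to 7.43) had one, Zfp866 and Zfp68 ranking highest. The intervals of the Mediator and Zfp shares lie above the background, but the lists were 17 in number and chosen with results known, and the shares were not tested. Zfp866 had RARα scores of 578 and 435 and RARβ scores of 121 and 187. Of 20 cholesterol synthesis genes, Nsdhl, which acts on the C4 position of sterols, had one. It is on chromosome X.

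Chromosome X stood out. Of its 374 RARα and RARβ regions, 51 lacked RXRα (13.6%, interval 10.5 to 17.5), against 6.13% on the autosomes, where single chromosomes ranged from 4.34% to 7.26%. The difference was 7.51 points (4.38 to 11.4). It was found near gene starts, where 34 of 143 regions on X (23.8%) and 6.75% on autosomes lacked RXRα, a difference of 17.0 points (10.8 to 24.7). Beyond 1 kb from a start the shares were 7.36% and 5.84%, a difference of 1.52 points (-1.22 to 5.64). Male cells carry a single X, and scores on X were lower than on autosomes in most lists. The median was 118 against 141 for RXRα under control and 119 against 145 under RA. For RARα it was 106 against 112 and 103 against 123, and for RARβ 69.0 against 76.5 and 102 against 99.4. The part of these scores in the difference was not tested.

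Regions on X were named after their values had been seen. At Atp6ap1, a subunit of the vacuolar proton pump, RARα scored 322 and 235 and RARβ 98.8 and 247, with RXRα 14.8 kb away. At Cmc4, which shares its region with the start of Brcc3, RARα scored 326 and 337 and RARβ 122 and 114. At Suv39h1, a histone H3 methyltransferase, RARα scored 146 and 180.4 and RARβ 131 and 155, with RXRα 21.0 kb away. The Pqbp1 region (chrX:7898643-7899890), shared with Timm17b, had RARα scores of 304 and 237 and RARβ scores of 107 and 78.5, and an RXRα peak lay 278 bp from it. At the Nsdhl promoter shown above, RARα scored 223 and 70.5, RARβ 115 under RA only, and RXRα was 89.0 kb away.

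How many regions lack RXRα depends on where the lists are cut, since RXRα had the longest lists. With every list cut to its 14968 highest-scoring peaks, 6046 RARα and RARβ regions lacked RXRα, and 473 of them (7.82%) overlapped one of the 1512. With peaks of at least 100 in every list there were 1131, of which 229 (20.2%) overlapped one of the 1512. So the identity of the regions was not stable to this choice. A cut drops low-scoring RXRα peaks and counts their regions as lacking RXRα. The comparisons below therefore describe mostly other regions and are no independent check of the 1512. The nearness to starts kept its direction, with 71.9% against 39.9% within 1 kb at equal list lengths and 73.5% against 46.1% at scores of at least 100. So did the share with at least 2 CCAAT boxes, with 18.5% against 15.97% (difference 2.56 points, 0.548 to 4.47) and 27.4% against 18.1% (9.35 points, 6.43 to 12.4). The excess on X near starts was 19.9 points (11.3 to 24.1) and 27.2 points (15.8 to 39.4). RARβ under the control diet alone stayed more frequent without RXRα, with 28.2% against 8.55% and 13.9% against 3.51%. The lower share called in all 4 RAR lists did not keep its direction, with 50.7% without against 49.1% with RXRα at equal lengths and 34.3% against 32.4% at scores of at least 100.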

How the data were processed

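The authors aligned single-end 35 bp reads to mm10 with Bowtie and called peaks with MACS, per the study's methods. The submitters' processing notes also name CASAVA 1.4. The deposited files are 1 BED list per ChIP library, and the deposited score of each peak is the caller's own, not normalized between libraries. Peaks that overlapped or touched were merged. Starts are the outermost ends of RefSeq gene spans on GRCm38.p6 (21537 protein-coding genes with a strand). Strand came from the RefSeq promoter table for 17492 genes and from GENCODE M1, by symbol only, for 4045. Shares carry Wilson and differences Newcombe 95% intervals (Python 3.11.15). The code was tested on simulated peaks. No count model and no test was run, since each group has 1 library. Members and gene lists were chosen with earlier results of these data known. Regions named were, by rule, the 8 highest in mean within-list percentile at starts and 5 beyond 10 kb in all 4 RAR lists, 5 each of the RA-only and control-only regions, all listed genes for lists under 25 genes and the 2 highest for larger lists, 3 on each side of the edge, and the widest. Regions outside the promoter table are given by position only.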

Additional observations from a re-analysis of the deposited data

How the results depend on the processing

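Depth and library count set the limits: each group was 1 library of unknown depth, so neither the spread between animals nor an effect of RA can be judged, and a missing RXRα call is not absence. No paired analysis was possible because each receptor and diet has 1 library.

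List cuts moved every share. With scores of at least 100 in every list, 34.3% were called in all 4 RAR lists, 3.01% under RA only, 73.5% lay within 1 kb and 86.3% within 10 kb of a start, 15.8% of those at starts had starts on both strands, 966 genes had a region at the start, and the median distance to RXRα was 8.11 kb. With lists of equal length these were 50.7%, 0.976%, 71.9%, 83.7%, 15.6%, 5056 genes and 26.9 kb, with 6046 regions. Leaving out regions with an RXRα peak within 1 kb left 1223, of which 18.9% were called in all 4 RAR lists, 32.4% lay within 1 kb and 50.2% within 10 kb of a start, at a median of 7.96 kb from RXRα. Starts of genes of all kinds gave 39.0% within 1 kb and 62.9% within 10 kb. Counting every start of the promoter table, chosen after seeing the data, gave 42.9% and 57.3%. The receptor half-site was in 11.0% of the windows of regions called in all 4 RAR lists. The alternatives keep other regions or starts by construction, and what moved the shares was not tested.

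Asking for 25% overlap of the RARs, for both RARs under one diet, merging peaks within 100 bp, leaving out tied top scores (none of the regions had one) or, chosen after seeing the data, leaving out chromosomes X and Y kept the shares within their intervals and the counts within 1.5 times.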

Other observations

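No signal outside the peak lists could be examined, since the input library had no file here. On chromosome Y, 5 of 39 RARα and RARβ regions lacked RXRα (12.8%, interval 5.60 to 26.7).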
